A study of Mus musculus with 6 samples.

Results

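The genes described here encode the proteins of the cytosolic ribosome in mouse cerebellar granule cells (GCs), the small excitatory neurons of the cerebellum. They were chosen by name, as protein-coding genes of GRCm38 whose symbol is Rpl, Rps or Rplp followed by a number, without the Rps6k kinases, and no measured value entered the choice. The rule found 91 genes among the 53421 of the deposited table. Of these, 76 are core ribosomal proteins, with 43 of the large subunit, 3 of its stalk and 30 of the small subunit. A further 8 are paralogs of core genes, 6 are protein-coding genes that are named as pseudogenes, and Rps19bp1 matches by name but encodes a protein that binds RPS19. The filter on low counts was passed by 84 of the 91, including all 76 core genes.

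The libraries were made from GCs of C57BL/6 mice, dissociated from the cerebellum and cultured. The age is labelled as postnatal day 8, and the cultures are described as from P6 to P8 pups of wildtype mice. A lentiviral hairpin, number 3 of those designed against Ythdf2, was given to the cultures of 3 libraries (shYthdf2). A control hairpin was given to those of the other 3 (shCtrl), and puromycin selection followed in both groups. Libraries of both groups carry the replicate numbers 1, 2 and 4. The question was which RNAs change in level when YTHDF2 is depleted, a reader protein that binds m6A-modified mRNA and is known to promote its decay.

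The sample titles and the genotype labels call the libraries named for the hairpin wildtype and the control libraries knockdown of Ythdf2. Groups here follow the library names and the hairpin numbers in the methods, and all directions turn round if the titles and genotype labels are right. Ythdf2 itself averaged 468 ± 56.9 normalized counts (SD, n = 3) in shYthdf2 and 696 ± 126 (SD, n = 3) in shCtrl, without overlap, with a log2 fold change of -0.57 (SE 0.16, adjusted p = 0.125; without replicate 2, -0.32 and 0.00124). The libraries held 17246821 to 21546595 counts. Those of replicate 2 stood apart from replicates 1 and 4 in both groups, and for single genes the values without both of these libraries are given beside the main ones, as a fit to 2 libraries against 2. The methods call the libraries biological replicates, 3 in each group, without saying which litters or cultures they came from, and the p-values measure the spread between these libraries. The granule cell markers Zic1, Neurod1 and Reln, known from this lineage, had at least 55222, 13986 and 40252 counts in every library. In bulk RNA, fewer cells of a type and less RNA per cell cannot be told apart.

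Each ribosome holds 1 copy of most of these proteins, and growing cells make them in matched amounts. Most of their mRNAs in mammals begin at a C with a run of pyrimidines, the 5′ terminal oligopyrimidine (TOP) motif, through which mTORC1 and LARP1 control their translation and stability. In neurons the mRNAs are also carried into axons, where new ribosomal proteins can be made far from the cell body. A few have paralogs that can take the parent's place in the ribosome, or processed copies elsewhere in the genome that are nearly identical in sequence.

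The start sites are shown because the run of pyrimidines is the sequence feature that the family is best known for. RefSeq start windows of GRCm38.p6 were found for 65 of the 91 genes. In a window from 10 bases before the annotated start to 20 bases into the transcript, a run was counted where a C within 5 bases of the start was followed by at least 4 bases that were each C or T, on the strand of the gene. Such a run was in 25 of 56 core windows (44.6%) and in 28 of 65 windows of all the genes of the family (43.1%). Over all genes it was in 6027 of 32851 windows (18.3%). For the family only the window nearest the start of the principal transcript was used, and for all genes every window. Whether mRNAs without a run at the annotated start lack the motif in these cells was not tested. The capitals mark the run, and Rps19 is given as an example with no match near its annotated start.
Rpl22l1, chr3:28805498-28805527, plus strand: gcgcaagcccgttCTCTTCCCacggctgca
Rps27l, chr9:66946076-66946105, plus strand: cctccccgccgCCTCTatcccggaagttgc
Rpl35, chr2:39005112-39005141, minus strand: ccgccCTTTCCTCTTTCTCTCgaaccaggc
Rplp2, chr7:141447641-141447670, plus strand: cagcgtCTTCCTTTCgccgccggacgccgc
Rps27, chr3:90213629-90213658, minus strand: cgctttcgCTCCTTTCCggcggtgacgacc
Rps27rt, chr9:114982720-114982749, minus strand: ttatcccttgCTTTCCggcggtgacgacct
Rps6, chr4:86857348-86857377, minus strand: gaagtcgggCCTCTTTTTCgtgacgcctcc
Rps19, chr7:24884666-24884695, plus strand: cggtgagtgagggctctgggtcgcggctgt

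These genes took a small and uneven share of the libraries. They held 0.807%, 1.18% and 0.809% of all counts in shYthdf2 replicates 1, 2 and 4, and 0.951%, 1.25% and 0.947% in the same replicates of shCtrl. On average this was 0.931% ± 0.213 in shYthdf2 and 1.05% ± 0.173 in shCtrl (SD, n = 3 each), and the groups overlapped because replicate 2 of shYthdf2 was above replicates 1 and 4 of shCtrl. Large-subunit genes held 0.410% to 0.590% of counts in shYthdf2 and 0.476% to 0.625% in shCtrl. Small-subunit genes held 0.325% to 0.478% and 0.385% to 0.510%, and the stalk genes 0.0526% to 0.0828% and 0.0656% to 0.0886%. In each class the libraries stood in the same order.

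**Figure D1:**
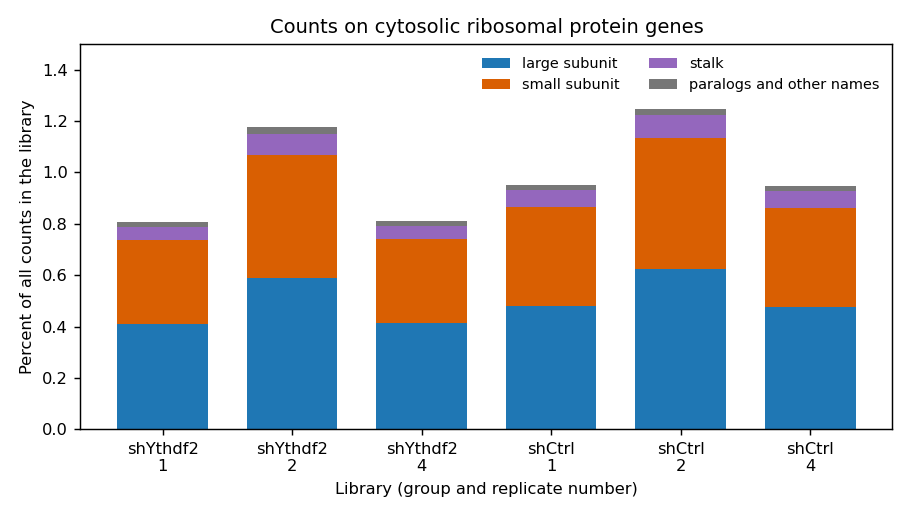
Stacked bars give the percent of all counts in each of the 6 libraries that fell on the 91 genes, split into large subunit, small subunit, stalk and the remaining names. The bars of replicate 2 reach 1.18% in shYthdf2 and 1.25% in shCtrl, and the other 4 lie between 0.807% and 0.951%.

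Levels between genes were compared as normalized counts per kilobase of exon (per kb) in shCtrl. Over the 76 core genes the median was 1170 per kb, from 10.4 for Rpl24 to 6569 for Rplp1. The 3 highest were Rplp1 and Rplp0, which form the base and arms of the stalk that recruits translation factors, and Rps15, a protein of the small-subunit head, with 6569, 5424 and 5133 per kb. Per kb of the principal transcript they ranked 4, 3 and 5, so that their place near the top did not rest on the exon length alone. The ranks of the core genes were nearly the same in the groups (Spearman's rho 0.99 across 76 genes, which are not independent replicates).
The lowest of the 84 tested were Rpl24 with 10.4, Rpl10-ps3 with 15.8 and Rpl22l1 with 81.2 per kb, followed by Rpl13a with 96.2. All 4 share sequence with other genes. Of the transcript windows of 100 bases, 80.1% in Rpl24, 95.8% in Rpl10-ps3, 50.8% in Rpl22l1 and 55.2% in Rpl13a occur in a transcript of another gene, and 47.0% of the exon bases of Rpl24 and 35.4% of those of Rpl13a overlap another gene on the same strand. Of the 76 core genes, 71 share at least 1 such window, with a median of 44.0% of windows, and reads from such windows cannot be assigned with certainty. Across the 76 core genes, the share of such windows and the level per kb of transcript had a Spearman's rho of -0.23, given as a description. The part of sequence sharing in the levels was not tested.

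In the comparison of the groups, no gene of the family passed an adjusted p of 0.05 in edgeR's quasi-likelihood test (0 of 84), while most had lower values in shYthdf2. The log2 fold change was negative for 75 of the 84 genes and positive for 9, with a median of -0.22. Over all 17214 genes tested the median was 0.01, with 49.2% negative, and over the 2203 genes at or above the core median level it was -0.08, with 60.6% negative. By adjusted p, 0.36% of all genes tested were called lower and 0.244% higher. At an unadjusted p under 0.05 there were 5 lower and 0 higher genes of the family, where 10.6% and 9.5% of all genes passed, so the family's 5 of 84 is below the background share. The 5 were Rpl22l1, Rps27l, Rpl35, Rplp2 and Rps27.

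The classes had similar medians. The median was -0.22 for the 43 large-subunit genes (37 negative, from -0.63 for Rpl35 to 0.38 for Rpl24), -0.21 for the 30 small-subunit genes (29 negative, from -0.63 for Rps27 to 0.11 for Rps27a) and -0.29 for the 3 stalk genes (all negative, from -0.30 to -0.23). Core genes that share under 25% of their windows with another gene had a median of -0.21 (24 genes, 22 negative), and those that share 50% or more had -0.22 (35 genes, 31 negative). Core genes whose start window holds a pyrimidine run had a median of -0.24 (25 genes, 24 negative), and those whose window holds none had -0.19 (31 genes, 28 negative). These differences between classes were not tested.

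**Figure D2:**
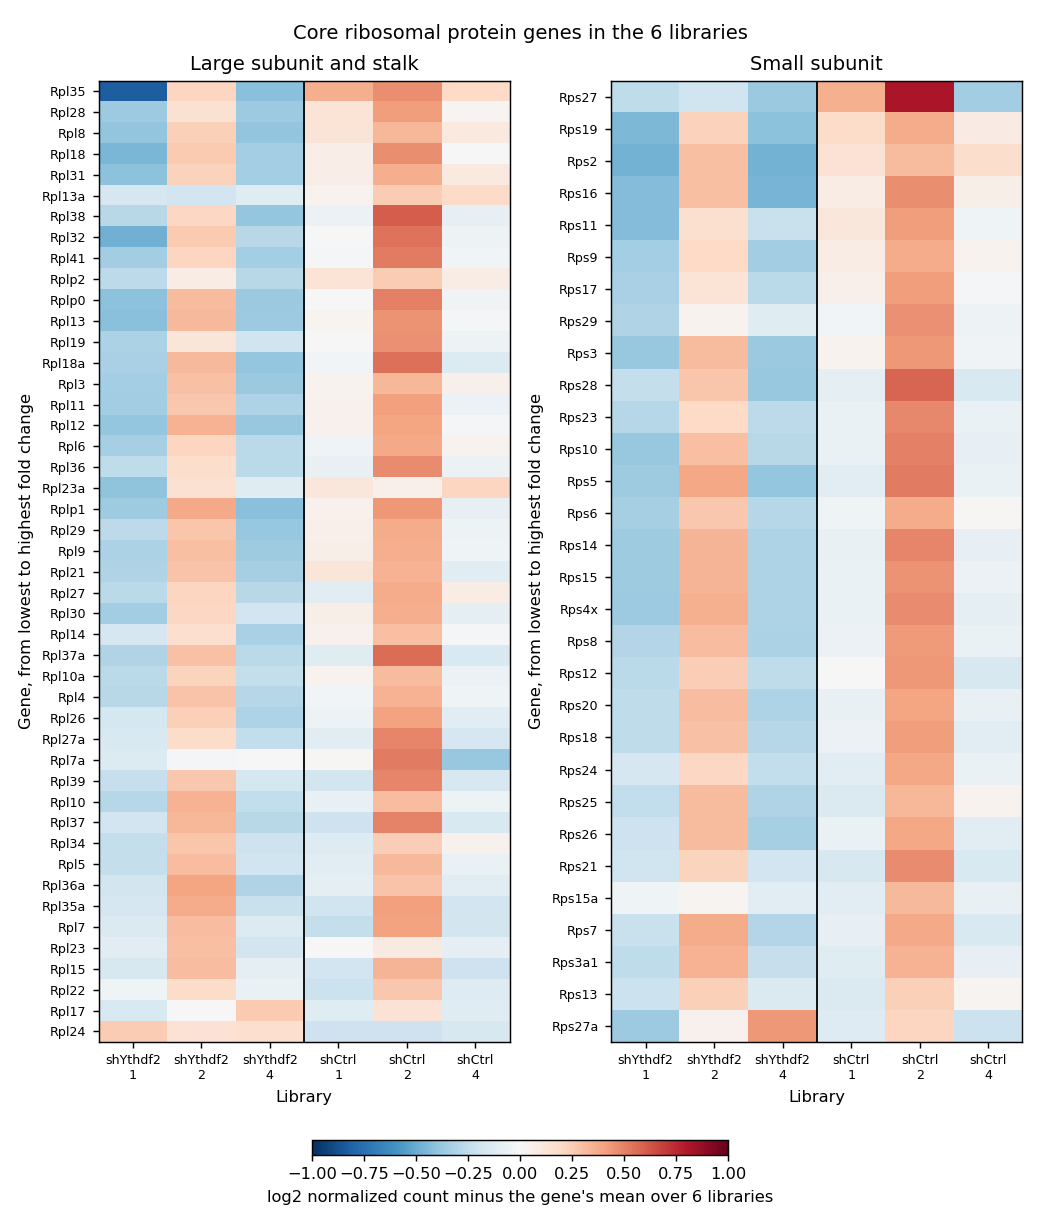
Each row is 1 of the 76 core genes and each column a library, and the colour gives the log2 normalized count minus the gene's mean over the 6 libraries, on a scale from -1 to 1. The columns of replicate 2 are mostly red in both groups, and those of shYthdf2 replicates 1 and 4 are mostly blue.

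The spread between replicates was wide and nearly common to the family. Replicate 2 was above the mean of replicates 1 and 4 for 80 of 84 genes in shYthdf2, by a median log2 difference of 0.55, and for 81 of 84 in shCtrl, by 0.42. Over all genes tested the median of the same differences was 0.00 in both groups. In shYthdf2 the SD of a core gene was 23.9% of its mean at the median, against 15% over all genes, and in shCtrl it was 18.2% against 17.1%. For 68 of the 76 core genes replicate 2 of shCtrl was the highest of the 6 libraries. For 70 of them replicate 2 of shYthdf2 was above replicates 1 and 4 of shCtrl.

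Read within replicate numbers, an assumed pairing that the labels do not state, the direction was the same 3 times. The median log2 difference was -0.25 in replicate 1, -0.14 in replicate 2 and -0.23 in replicate 4, with 74, 76 and 77 of the 84 genes lower in shYthdf2. All 3 pairs were lower for 65 of 84 genes (77.4%), against 26.9% of all genes tested. Among the 2203 genes at or above the core median level the share was 44.7%. One gene of the family, Rpl24, was higher in all 3. Of the core genes, 61 of 76 were lower in all 3 pairs, with 30 of 43 in the large subunit, 28 of 30 in the small subunit and 3 of 3 in the stalk. Replicates 1 and 4 of shYthdf2 both lay below every shCtrl library for 63 of 76 core genes, against 25% of all genes. The groups of 3 as a whole did not overlap for 3 lower genes (Rpl22l1, Rps27l and Rpl13a) and 1 higher gene (Rpl24), where 13.4% and 12.6% of all genes tested did not overlap. At or above the core median level, 22.8% of genes were lower without overlap.

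**Figure D3:**
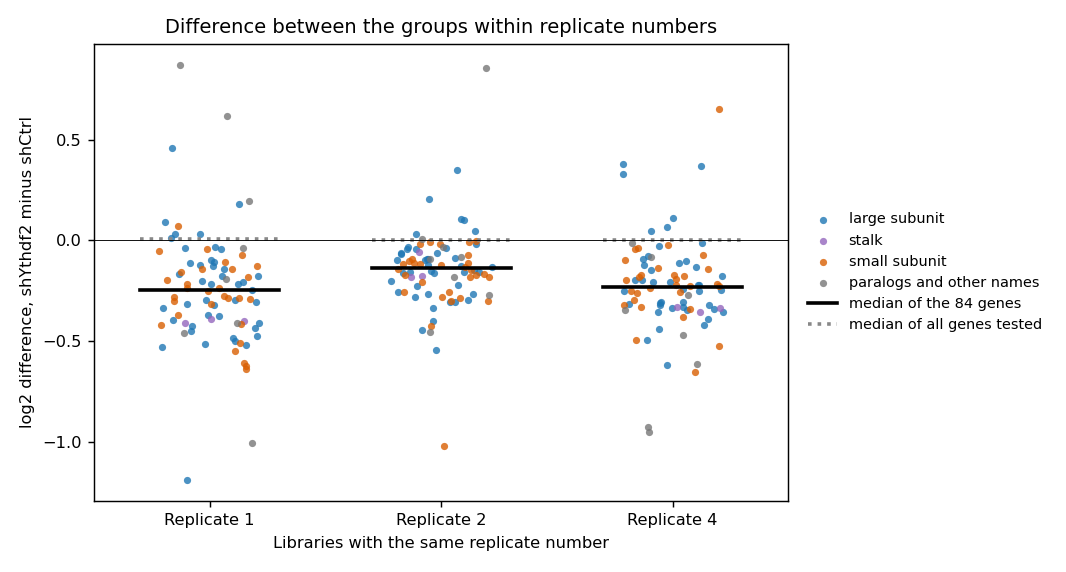
Each point is 1 of the 84 genes, and its height is the log2 normalized count in shYthdf2 minus that in shCtrl within libraries of the same replicate number. Black lines give the medians of -0.25, -0.14 and -0.23, and dotted lines the medians of all genes tested, which lie between 0.00 and 0.01.

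The calls depended on how replicate 2 was treated. Blocking on the replicate number made 50 genes lower and 0 higher at an unadjusted p under 0.05 (16.3% and 15.4% of all genes), and 0 of the 84 passed the adjusted threshold, which 1.35% of all genes did. The smallest adjusted p of the family under the block was 0.0578, for Rpl41. With a batch term for replicate 2 alone, 34 genes were lower and 0 higher by adjusted p (11.6% and 10.4% of all genes). With both libraries of replicate 2 left out, 62 were lower and 1, Rpl22, was higher by adjusted p (27.0% and 25.8% of all genes). The median was then -0.26. Among the 2203 genes at or above the core median level, more were called lower than higher in each of these fits. The block made 735 lower and 336 higher at an unadjusted p under 0.05. By adjusted p the batch term called 620 and 269, and the fit without replicate 2 called 1088 and 672. The median of the family moved further where a single library was left out. Without replicate 2 of shCtrl the median was -0.03 and 49 of 86 genes were lower, and without replicate 2 of shYthdf2 it was -0.41 and 82 of 86 were lower. Without replicate 1 or 4 of shYthdf2 it was -0.11 in either case, with 69 of 86 and 72 of 85 genes lower.

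Markers of other cell types also differed between the libraries, and none of these lists had the full order of the ribosomal protein genes. The 2 libraries of replicate 2 had the highest sums of the 6 for oligodendrocytes, vascular cells and proliferating progenitors, as for the family. Markers of astrocytes with Bergmann glia had a positive log2 fold change for all 9 of 9 tested genes (median 0.31), those of oligodendrocytes for 8 of 8 (0.58), of microglia for 7 of 7 (1.24) and of vascular cells for 8 of 8 (0.46), and 0 of these passed the adjusted threshold. Without replicate 2, adjusted p called 8 of 9 astrocyte, 8 of 8 oligodendrocyte, 7 of 7 microglial and 4 of 8 vascular markers higher. That fit called 25.8% of all genes higher. Within replicate 2 the direction differed between the lists. There 6 of 9 astrocyte, 6 of 8 oligodendrocyte and 6 of 7 microglial markers were lower in shYthdf2, with a median log2 difference of -1.37 for the microglial ones. Of the vascular markers 1 of 8 was lower there, with a median log2 difference of 0.71. The summed astrocyte markers ranged from 0.0661% to 0.0737% of counts in shYthdf2 and from 0.0329% to 0.0737% in shCtrl, and those of oligodendrocytes from 0.0795% to 0.101% and from 0.0284% to 0.0991%. Microglial markers ranged from 0.00253% to 0.00774% and from 0.00122% to 0.00499%, and P2ry12, which defines microglia, had 0 counts in shCtrl replicates 1 and 4 and 1 to 4 in the other libraries. In replicates 1 and 4 the astrocyte and oligodendrocyte sums were higher in shYthdf2. In replicate 2 of either group both sums were above those of replicates 1 and 4 of shCtrl. Within shYthdf2, replicate 2 had the lowest astrocyte and microglial sums and the highest oligodendrocyte and vascular ones. Markers of GABAergic interneurons held 0.0406% to 0.0488% in shYthdf2 and 0.0336% to 0.0356% in shCtrl. Granule cell markers held 1.09% to 1.18% of counts in shYthdf2 and 1.07% to 1.11% in shCtrl. Vascular markers held 0.0400% and 0.0298% in replicate 2 of shYthdf2 and shCtrl, and at most 0.0160% in the other libraries. Proliferating progenitor markers held 0.0121% and 0.0115% there, and at most 0.00972% in the others. Of the 8 progenitor markers tested, 6 were positive and 2 negative (median 0.41), with 0 past the adjusted threshold. The part of the other cell types in the values of the ribosomal protein genes was not tested.

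In the stalk, the 3 genes moved alike. Rplp0, the scaffold of the stalk, had 5986, 9945 and 6162 normalized counts in shYthdf2 replicates 1, 2 and 4 and 7948, 11287 and 7762 in shCtrl. Rplp1, an arm of the stalk, had 2314, 3843 and 2220 against 3054, 3992 and 2788. Their log2 fold changes were -0.29 (SE 0.24, adjusted p = 0.54) and -0.23 (SE 0.24, adjusted p = 0.629), and replicate 2 of shYthdf2 overlapped shCtrl for both.
Rplp2, the partner of Rplp1, had 1498, 1892 and 1475 against 1965, 2135 and 1887 normalized counts. Its replicate 2 of shYthdf2 was above the lowest shCtrl library by a small margin, and all 3 pairs were lower. The log2 fold change was -0.30 (SE 0.12, unadjusted p = 0.0448, adjusted p = 0.236). Without replicate 2, all 3 stalk genes were lower by adjusted p, with -0.38 for Rplp0 (2.81e-07), -0.37 for Rplp1 (3.8e-06) and -0.38 for Rplp2 (2.57e-06). The same fit called 27.0% of all genes lower and 25.8% higher.

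In the large subunit, Rpl35, a protein near the exit of the peptide tunnel, had the largest fold change. It had 222, 454 and 293 normalized counts in shYthdf2 and 505, 542 and 449 in shCtrl, so that replicate 2 of shYthdf2 was just above the lowest shCtrl library. The means were 323 ± 119 and 499 ± 46.4 (SD, n = 3 each), with a log2 fold change of -0.63 (SE 0.25, unadjusted p = 0.0405, adjusted p = 0.226). Without replicate 2 it was -0.90 (adjusted p = 9.1e-06), and without that of shYthdf2 alone it was -0.96 (adjusted p = 0.0424). A gene on the opposite strand overlaps 66.2% of its exon bases, and without a stated strand setting their reads cannot be told apart.
Rpl28 had 1806, 2577 and 1805 against 2553, 3095 and 2363 normalized counts, with a log2 fold change of -0.37 (SE 0.17, adjusted p = 0.283; without replicate 2, -0.45 and 3.35e-07). Rpl13a, which is also known from a complex that silences translation in inflammation, had 162, 159 and 167 against 186, 216 and 208. It was 1 of the 4 genes whose groups did not overlap, at a log2 fold change of -0.32 (SE 0.15, adjusted p = 0.279; without replicate 2, -0.26 and 0.0944). Its replicate 2 in shYthdf2 was the lowest of the 6 libraries, unlike that of most of the family.
Rpl5 and Rpl11 bind 5S RNA and, when ribosome assembly fails, MDM2, which frees p53. Rpl5 had 2694, 3934 and 2767 normalized counts against 2943, 3980 and 3034 (log2 fold change -0.08, SE 0.19, adjusted p = 0.834). Rpl11 had 2572, 3942 and 2643 against 3377, 4357 and 3145 (-0.25, SE 0.20, adjusted p = 0.532). The pairs of replicates 1 and 4 were lower by less in Rpl5 than in Rpl11. Without replicate 2 both were lower by adjusted p, as were 27.0% of all genes. The log2 fold changes were then -0.13 for Rpl5 (adjusted p = 0.00438) and -0.33 for Rpl11 (adjusted p = 5.32e-06).
Rpl24, of the inter-subunit bridge, was the highest fold change of the core at 0.38 (SE 0.31, adjusted p = 0.544). It had 14.6, 13.6 and 13.8 normalized counts against 10.6, 10.7 and 11, so the groups did not overlap but the depth was low, and without replicate 2 its adjusted p was 0.465.

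In the small subunit, Rps6, whose phosphorylation by S6 kinase is the usual readout of mTORC1, had 2692, 4084 and 2788 normalized counts in shYthdf2 and 3294, 4388 and 3423 in shCtrl. The log2 fold change was -0.22 (SE 0.19, adjusted p = 0.574), close to the family's median. Rps19, the gene most often mutated in Diamond-Blackfan anaemia, had 1302, 2086 and 1337 against 2028, 2303 and 1881, with a log2 fold change of -0.39 (SE 0.20, adjusted p = 0.306). Rps15 had 2311, 3736 and 2384 against 2818, 4039 and 2845 (-0.20, SE 0.23, adjusted p = 0.66). Without replicate 2 all 3 were lower by adjusted p, as were 27.0% of all genes. The log2 fold changes were then -0.30 for Rps6 (adjusted p = 5.4e-06), -0.57 for Rps19 (9.03e-08) and -0.27 for Rps15 (6e-06). Rps19 also passed with the batch term (adjusted p = 0.0303) and with replicate 2 of shYthdf2 alone left out (-0.65, adjusted p = 0.0417). In all 3 genes replicates 1 and 4 of shYthdf2 were below every shCtrl library and replicate 2 was above replicates 1 and 4 of shCtrl. Rps27a, which is made as a fusion with ubiquitin and is named here after its values were seen, had 742, 982 and 1290 normalized counts against 873, 1107 and 822, and its one high library was replicate 4 of shYthdf2.

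Parents and paralogs were set side by side because paralogs can replace the parent protein. Rpl22l1, the paralog of Rpl22, had 92.0, 113 and 84.9 normalized counts in shYthdf2 and 185, 137 and 164 in shCtrl, without overlap. The means were 96.8 ± 14.8 and 162 ± 24.0 (SD, n = 3 each), or 59.9% of shCtrl, and the log2 fold change of -0.74 was the largest of the 84 (SE 0.20, unadjusted p = 0.00799, adjusted p = 0.119). The two-sided exact permutation test gave p = 0.1, the smallest that 3 against 3 can give. DESeq2 gave an adjusted p = 0.0338 for Rpl22l1. Without replicate 2 the log2 fold change was -0.98 (adjusted p = 5.78e-05), and over the alternatives the adjusted p ranged from 5.78e-05 to 0.411.
Rpl22 had 2195, 2562 and 2153 normalized counts against 1939, 2722 and 2058, with a log2 fold change of 0.04 (SE 0.15, adjusted p = 0.906). In replicates 1 and 4 it was higher in shYthdf2, by 0.18 and 0.07 on the log2 scale, and in replicate 2 it was lower by 0.09. In the same replicates Rpl22l1 differed by -1.004, -0.95 and, in replicate 2, -0.27. Without replicate 2, Rpl22 was higher by adjusted p (0.12, adjusted p = 0.0202). The difference between parent and paralog was not tested.

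**Figure D4:**
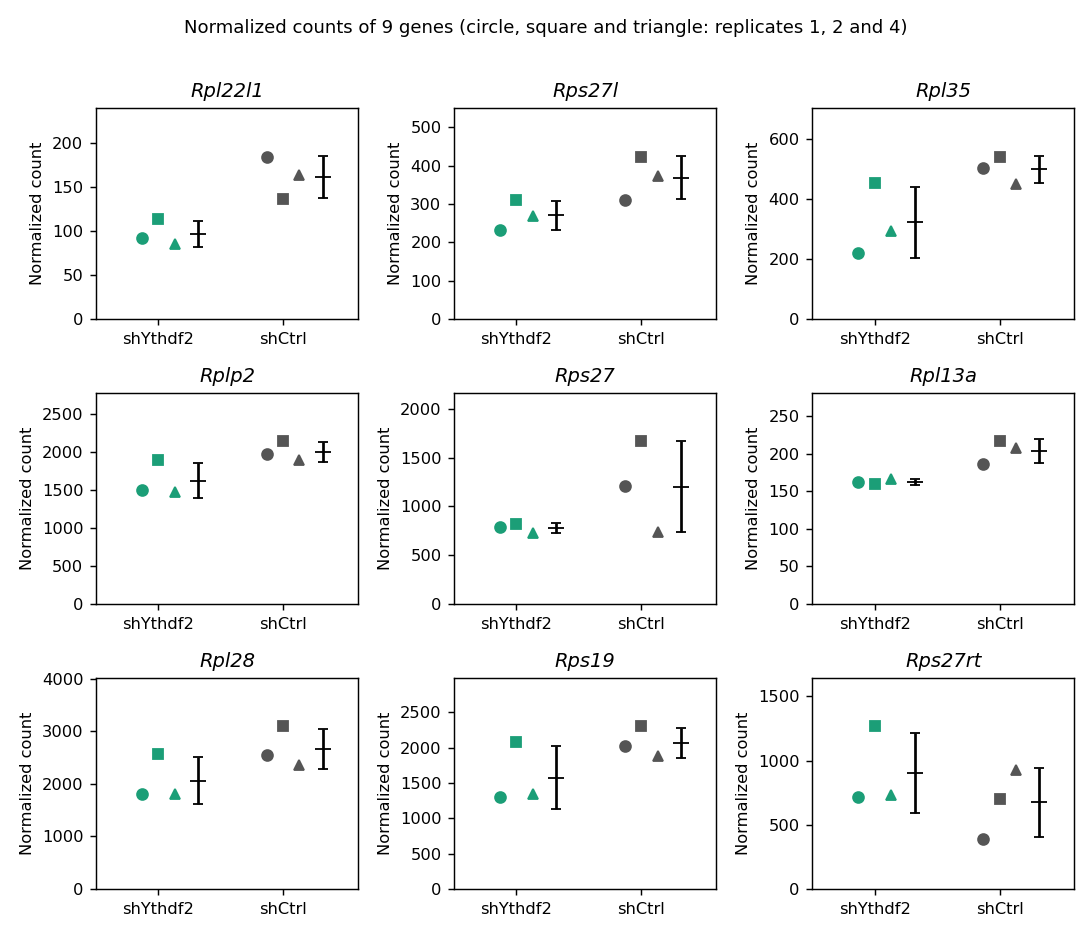
Each panel gives the normalized counts of 1 gene in the 6 libraries, with the mean and SD of each group (n = 3) to the right of the points and symbols for the replicate number. The panels of Rpl22l1, Rps27l and Rpl13a show no overlap between the groups, and the others do.

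Rps27 has a paralog, Rps27l, which is a known p53 target, and an intronless copy, Rps27rt. Rps27l had 233, 309 and 270 normalized counts in shYthdf2 and 310, 423 and 374 in shCtrl, without overlap by less than 1 count. The log2 fold change was -0.45 (SE 0.17, unadjusted p = 0.0355, adjusted p = 0.213), and the pairs differed by -0.41, -0.45 and -0.47. Without replicate 2 it was -0.44 (adjusted p = 0.00441). It shares 0 of its windows with another gene.
Rps27 had 792, 821 and 727 normalized counts against 1205, 1664 and 739, with a log2 fold change of -0.63 (SE 0.26, unadjusted p = 0.0475, adjusted p = 0.242). Rps27rt had 712, 1266 and 731 against 389, 700 and 929, with 0.43 (SE 0.34, adjusted p = 0.534), the highest of the 84. Replicate 4 of shCtrl was low for Rps27 and high for Rps27rt. Without replicate 2 the values were -0.37 for Rps27 (adjusted p = 0.046) and 0.15 for Rps27rt (adjusted p = 0.627).
The transcripts are nearly the same, with 98.4% of the windows of Rps27 and 89.5% of those of Rps27rt found in another gene, so that reads may be placed on either. Rps27rt took 47.4%, 60.7% and 50.1% of their summed counts in shYthdf2 and 24.4%, 29.6% and 55.7% in shCtrl. Summed, they had 1683 ± 351 and 1876 ± 425 normalized counts (SD, n = 3 each), 89.7% of shCtrl, which was within the spread of either group.

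The other pairs showed smaller differences. Rpl7 had 3434, 4710 and 3461 normalized counts against 3226, 5018 and 3353 (log2 fold change 0.00, SE 0.21, adjusted p = 0.998), and its paralog Rpl7l1, a ribosome assembly factor, had 1033, 1288 and 1074 against 1061, 1461 and 1137 (-0.11, SE 0.15, adjusted p = 0.734). Rpl39 had 1303, 1838 and 1353 against 1344, 2145 and 1364 (-0.11, SE 0.22, adjusted p = 0.812). Rpl36a had 809, 1208 and 746 against 866, 1123 and 855 (-0.04, SE 0.21, adjusted p = 0.933). In these 4 genes the groups overlapped, and without replicate 2 their adjusted p ranged from 0.0637 to 0.597.
Rpl3 had 3258, 5041 and 3194 normalized counts against 4213, 5175 and 4274 (-0.25, SE 0.19, adjusted p = 0.518), and Rps4x, the X-linked parent of a pair, had 2599, 4299 and 2706 against 3199, 4663 and 3146 (-0.20, SE 0.24, adjusted p = 0.687). Rpl10 had 1898, 2955 and 1951 against 2206, 2863 and 2237 (-0.10, SE 0.20, adjusted p = 0.806), and Rpl10-ps3, which shares 95.8% of its windows with others and most with Rpl10, had 13.6, 14.5 and 6.4 against 8.9, 15.5 and 12.1 (-0.07, SE 0.44, adjusted p = 0.948). Replicates 1 and 4 of shYthdf2 lay below all of shCtrl for Rpl3, Rps4x and Rpl10 but not for Rpl10-ps3. Without replicate 2, Rpl3 (-0.40, adjusted p = 1.58e-07), Rps4x (-0.26, 1.57e-05) and Rpl10 (-0.21, 0.000195) were lower by adjusted p, and Rpl10-ps3 was not (-0.05, 0.943). Over all genes that fit called 27.0% lower.

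The 7 genes that were not tested had few or no counts. Rpl3l, the muscle paralog of Rpl3, had 0, 4 and 1 counts in shYthdf2 and 2, 2 and 1 in shCtrl. Rpl39l had 0, 0 and 1 against 1, 2 and 2, and Rpl10l, both known from the testis, had 0 in all 6 libraries, as did Rpl36-ps4 and Rpl9-ps1. Rpl36al had 3, 7 and 11 against 13, 8 and 7 counts, and Rpl36a-ps1 had 5, 10 and 14 against 14, 8 and 9. At this depth these genes allow no comparison, and a count of 0 allows a level of up to 3 counts per library.

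**Figure D5:**
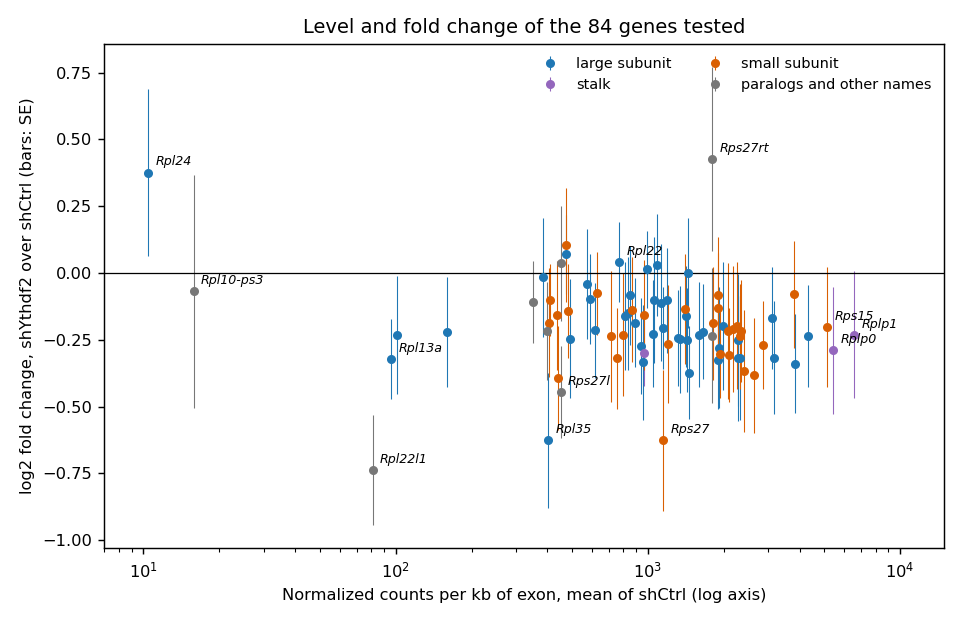
Each point is 1 of the 84 genes, with normalized counts per kb of exon in shCtrl on a log axis and the log2 fold change with its SE on the other. Most points lie between -0.4 and 0, Rpl22l1 is lowest at -0.74, and Rps27rt and Rpl24 are highest at 0.43 and 0.38.

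Outside the name rule, Rpsa, Fau and Rack1 also encode proteins of the cytosolic ribosome, and all 3 had negative fold changes that did not pass the adjusted threshold. Rpsa averaged 5181 ± 1606 and 6603 ± 843 normalized counts in shYthdf2 and shCtrl (SD, n = 3 each), with a log2 fold change of -0.35 (SE 0.21, adjusted p = 0.406). Fau, which encodes RPS30 as a fusion, had -0.45 (SE 0.20, adjusted p = 0.255) and Rack1, a scaffold on the small subunit, -0.20 (SE 0.23, adjusted p = 0.679). Without replicate 2 all 3 were lower by adjusted p, as were 27.0% of all genes. The log2 fold changes were then -0.53 (adjusted p = 8.46e-09), -0.50 (6.85e-08) and -0.28 (5.87e-06).

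Other parts of the translation machinery had medians between those of the family and of all genes. Of 60 genes for ribosome biogenesis, 48 were negative and 12 positive (median -0.16, 0 past the adjusted threshold). Of 38 initiation factors, 28 were negative and 10 positive (-0.17, 0 past the threshold), and of 13 elongation and termination factors, 10 were negative and 3 positive (-0.14, 0 past the threshold). Without replicate 2, adjusted p called 32 lower and 3 higher for biogenesis, 24 and 4 for initiation and 9 and 3 for elongation and termination. Over all genes that fit called 27.0% lower and 25.8% higher. With the batch term adjusted p called 7, 16 and 3 lower and 0, 2 and 1 higher. Over all genes the shares were 11.6% and 10.4%. In the last list the pyrimidine run was found in 1 of 11 start windows (9.09%), below the share over all genes. All windows of these genes were counted, unlike those of the ribosomal protein genes, so the share is not comparable with theirs. Of its genes known to have TOP mRNAs, Eef1a1 had a log2 fold change of -0.06 (SE 0.20, adjusted p = 0.897), Eef2 -0.19 (SE 0.20, adjusted p = 0.651) and Tpt1 -0.24 (SE 0.15, adjusted p = 0.425). Without replicate 2 they had -0.09 (adjusted p = 0.00903), -0.32 (1.36e-07) and -0.28 (8.9e-06). Of 15 ribosome quality control genes tested, 11 were negative (-0.15). Of 8 genes of the MDM2 and p53 arm, 4 were negative (median -0.05, from -1.47 to 0.13). In both lists 0 passed the threshold. Summed, the p53 arm held 0.0489% to 0.0528% of counts in shYthdf2 and 0.0536% to 0.0788% in shCtrl. Without replicate 2 the calls were 9 lower and 3 higher for quality control and 5 lower and 1 higher for the p53 arm.
Among 25 regulators of mTORC1 and TOP mRNAs, 16 were negative and 9 positive (median -0.08). Without replicate 2, 11 fell and 7 rose by adjusted p (27.0% and 25.8% of all genes). In the main test 1 fell by adjusted p. This was Eif4ebp2, the neuronal repressor of cap-dependent initiation downstream of mTORC1, with 2273 ± 94.1 normalized counts in shYthdf2 and 3588 ± 157 in shCtrl (SD, n = 3 each). Its log2 fold change was -0.66 (SE 0.09, adjusted p = 0.0447; without replicate 2, -0.67 and 8.63e-10), and its groups did not overlap. Larp1, which binds TOP mRNAs, had -0.24 (SE 0.17, adjusted p = 0.468), and Mtor had -0.01 (SE 0.10, adjusted p = 0.967). Without replicate 2 they had -0.34 (adjusted p = 1.24e-06) and -0.04 (adjusted p = 0.339).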

How the data were processed

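RNA was sequenced from 6 libraries of cultured GCs, 3 with shYthdf2 and 3 with shCtrl. By the methods, the authors filtered the reads, mapped them to GRCm38 with HISAT v2.0.4 and TopHat2 2.1.1 and counted reads per gene with HTSeq v0.9.1. The submitters' processing notes name mm9 and Bowtie 0.12.2 instead. The strand and overlap settings of the counting are not given in the sources used here. The deposited values are raw counts, whole numbers without normalization. All 6 columns were used. Of the 53421 gene IDs, 52489 were matched to the GENCODE annotation of GRCm38, and 932 were not.

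The quasi-likelihood test of edgeR 4.0.16 (R 4.3.3) was used with TMM normalization and Benjamini-Hochberg adjustment over all genes tested, at a threshold of 0.05. The filter filterByExpr (minimum count 10, minimum total 15) kept 17214 genes and removed 36207. Normalized counts were scaled by TMM to one library size, so all levels are relative to the other RNA of a library. Single values were compared by two-sided exact permutation tests, whose smallest p is 0.1. The edgeR, DESeq2, limma-voom and replicate block fits were tested on simulated data that held no effect of replicate 2. The other fits were not tested in this way, among them the batch term and the fit without replicate 2. Levels per kb use the union of exons. Shared windows are the 100-base windows of a gene's principal transcript that occur exactly in a transcript of another gene. Start sequences are from RefSeq. Python 3.11.15, pandas 2.3.3, scipy 1.17.1 and matplotlib 3.10.9 were used.

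The name rule uses no measured value, but the members, gene lists, tests and named genes were chosen with earlier results of these data known. The genes named are those past the adjusted threshold, the 8 with the smallest p, the 3 highest and 3 lowest per kb, the parents and their paralogs, and Rps6, Rpl5, Rpl11, Rps19, Rplp0, Rplp1 and Rplp2. Outside the family they are Ythdf2, Rpsa, Fau, Rack1, Eef1a1, Eef2, Tpt1, Larp1, Mtor and list genes past the adjusted threshold. One further gene of that rule is not reported here. The remaining ones were named after their values were seen.

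Deviations from the group means correlated between libraries of the same replicate number, with correlations of 0.250 (replicate 1), 0.361 (replicate 2) and 0.305 (replicate 4). Correlations between libraries of different numbers were not computed. Because replicate 2 stood apart in both groups, these values cannot show that the numbers pair the libraries. The labels do not state a pairing, and the comparisons within replicate numbers assume it. Alternatives tried were DESeq2 1.42.0, limma-voom (limma 3.58.1), RLE size factors, library size alone, no filter, a minimum of 10 counts in each library, the replicate block, a batch term for replicate 2, both libraries of replicate 2 left out, and each library left out. Transcript length in place of exon length was added after the data were seen.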

Additional observations from a re-analysis of the deposited data

How the results depend on the processing

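Of the 84 genes, 0 passed the adjusted threshold in the main test, and also with RLE size factors, library size alone, limma-voom, either other filter and the replicate block. DESeq2 called 1, the batch term for replicate 2 called 34 and leaving out both libraries of replicate 2 called 63. Over all genes, the batch term called 11.6% lower and 10.4% higher, and leaving out replicate 2 called 27.0% and 25.8%. With each library left out the count ranged from 0 to 4 (replicate 2 decided it, with 1 call when that of shCtrl was dropped and 4 when that of shYthdf2 was). The replicate block gave 0 calls at a median of -0.23, and changed no adjusted call among the genes of the family. Outside it, the block added 1 lower mitochondrial ribosomal protein gene (Mrpl4) and 1 higher GABAergic marker (Gad1). With each library left out, the median ranged from -0.408 to -0.031 around the main value of -0.22, and the genes lower in shYthdf2 ranged from 49 to 82 around 75. Under the other settings the median stayed between -0.26 and -0.18. The mean share of counts differed by -0.118 percentage points, and by -0.241 to -0.018 with a library left out. Of the 84 genes, 35 changed sign under at least 1 alternative, and 9 of these are among the 25 named with values. Of the 25, 16 were called lower and 1 higher without replicate 2 (27.0% and 25.8% of all genes). With the batch term 11 were called (11.6% of all genes lower and 10.4% higher). The 25 include the 8 genes with the smallest p in the main test, so these counts are raised by the choice. Rpl7 changed sign with RLE size factors (-0.0011), DESeq2 (-0.0011) and no filter (-0.011). With each library left out, the log2 fold changes ranged from -0.342 to 0.0311 for Rpl10, from -0.276 to 0.214 for Rpl10-ps3, from -0.0589 to 0.206 for Rpl22, from -0.288 to 0.1002 for Rpl36a, from -0.288 to 0.147 for Rpl39, from -0.284 to 0.0685 for Rpl5, from -0.168 to 0.235 for Rpl7, from -0.213 to 0.0436 for Rpl7l1 and from -0.471 to 0.0143 for Rps4x. The causes were not tested. The wide spread of replicate 2 and, for Rpl24, Rpl10-ps3 and the untested genes, the low counts limit what can be seen.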

Other observations

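The mitochondrial ribosome is built from separate nuclear genes. Of 78 Mrpl and Mrps genes, 77 were tested, with 55 lower and 22 higher values in shYthdf2, a median log2 fold change of -0.15 and 0 past the adjusted threshold. Without replicate 2, 26 were lower and 7 higher by adjusted p (27.0% and 25.8% of all genes). In 42 of 77 all 3 replicate pairs were lower, as in 26.9% of all genes. Replicate 2 was above replicates 1 and 4 by a median of 0.33 in shYthdf2 and 0.30 in shCtrl. Mrpl4, named after its values were seen, averaged 694 ± 14.8 normalized counts in shYthdf2 and 1040.0 ± 62.9 in shCtrl (SD, n = 3 each), with a log2 fold change of -0.58 (SE 0.10, adjusted p = 0.0527, 0.0496 with the replicate block and 2.45e-07 without replicate 2).

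Of 283 pseudogenes named after the family, 68 passed the filter, with 52 lower and 16 higher values, a median of -0.22 and 0 past the adjusted threshold. Without replicate 2, 20 were lower and 2 higher by adjusted p (27.0% and 25.8% of all genes). Their counts were 6.11% ± 0.452 (SD, n = 3) of those of the parent family in shYthdf2 and 6.11% ± 0.127 (SD, n = 3) in shCtrl. Reads of parents and pseudogenes cannot be told apart where their sequences are the same.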
